A study of Homo sapiens with 2 samples.

Results

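The miR-125 family on these arrays is 5 probes, each named for a mature miRNA or for the opposite arm of its hairpin. They are hsa-miR-125a-5p, hsa-miR-125a-3p, hsa-miR-125b-5p, hsa-miR-125b-1-3p and hsa-miR-125b-2-3p, chosen by probe name from 2632 miRNA probes, with 1 spot each per array and no failure flag on any of them. The family was measured in RNA from exosomes of U87MG delta EGFR cells, a glioblastoma line whose name refers to a truncated epidermal growth factor receptor. There was 1 array of non-treated control cells and 1 array of cells given boron neutron capture therapy (BNCT), in which neutrons split boron taken up by the cells. The BNCT cells were exposed for 2 hours to p-boronophenylalanine-fructose at 25 ppm, irradiated with thermal neutrons, and their medium was collected on day 3. Both cultures grew in serum depleted of exosomes. The labels give that treatment text for both samples, so the handling of the control cells beyond "non-treated" is not known, and boron compound, neutrons, handling and slide cannot be told apart. The titles name exosomes while the extraction text speaks of cells. With 1 array in each group there was no replicate and no test, and sizes were read against the spots within each array.

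The miR-125 family is the vertebrate counterpart of lin-4, a regulator of developmental timing in Caenorhabditis elegans. Each hairpin is cut into a 5p arm, usually the loaded and abundant strand, and a 3p arm that is usually degraded as the passenger strand. In the brain miR-125b-5p is abundant in neurons and glia, and it is known to repress the mRNAs of p53 and of the cell death protein BAK1. miR-125a-5p and miR-125b-5p share targets because they share a seed, the stretch of bases 2 to 8 that pairs with target mRNAs.

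The mature sequences show which arms can be told apart by their bases. They are from RefSeq (GRCh38.p14), written 5′ to 3′ with the seed in capitals, and all 5 probe names matched an entry. Both 5p arms have the same seed, and the 3p arms have 3 different seeds.
miR-125a-5p: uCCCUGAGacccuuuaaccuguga
miR-125b-5p: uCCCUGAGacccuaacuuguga
miR-125a-3p: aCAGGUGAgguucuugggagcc
miR-125b-1-3p: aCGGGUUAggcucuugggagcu
miR-125b-2-3p: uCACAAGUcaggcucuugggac
miR-4319: uCCCUGAGcaaagccac
The last is the only other human miRNA among the RefSeq entries with the 5p seed, and it was on the array. The 5p arms are identical over their first 13 bases. The 3p arms share the run ucuuggga of 8 bases, and miR-125b-1-3p and miR-125b-2-3p share 12 bases, aggcucuuggga. Of the other matched miRNAs on the array only miR-1182, named after its values were seen, holds the run of 8, and it was above the detection limit (defined with the values) on both arrays. How far a probe for any of these binds its relatives was not tested.

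MIR125A lies at chr19:51693254-51693339 on the plus strand and encodes both miR-125a arms (5p at 51693268 to 51693291, 3p at 51693306 to 51693327). In the RefSeq gene table it overlaps SPACA6 and SPACA6-AS1, with MIR99B and MIRLET7E as neighbours. MIR125B1 lies at chr11:122099757-122099844 on the minus strand, inside the long non-coding RNA gene MIR100HG and near MIR100 and MIRLET7A2, and its 3p arm is at 122099769 to 122099790. MIR125B2, on chromosome 21 inside MIR99AHG and near MIR99A and MIRLET7C, has its 3p arm at chr21:16590290-16590311 on the plus strand. miR-125b-5p comes from both MIR125B1 and MIR125B2, so its probe cannot tell these 2 genes apart, while each 3p arm comes from 1 hairpin. The hairpins of 2 of these genes are printed with the arms in capitals, since the arms compared here are the opposite sides of these stems.
MIR125A: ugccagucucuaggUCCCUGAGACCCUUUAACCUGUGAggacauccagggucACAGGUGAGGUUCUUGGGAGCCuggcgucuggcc
MIR125B1: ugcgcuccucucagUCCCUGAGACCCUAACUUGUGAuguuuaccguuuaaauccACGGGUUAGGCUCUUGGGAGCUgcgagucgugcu

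The signal of the whole family was close to that of spots without a miRNA probe. Values are median spot intensities of the Cy5 channel in scanner units. The 312 blank spots ranged from 236.5 to 287.9 units in control and from 234.5 to 274.9 in BNCT. A miRNA was counted as above the detection limit when its spot exceeded the blank mean by over 2 SD, both taken without the outer 5% at each end, which put the limit at 272.0 units in control and 267.5 in BNCT. By this limit 1 of 5 members was above it in control, against 28.6% of all miRNA probes, and 3 of 5 in BNCT, against 36.2%. miR-125a-3p was above it on both arrays (23.9% of all probes were), miR-125b-1-3p and miR-125b-2-3p on the BNCT array only (12.3%), both 5p arms on neither (59.2%), and no member in control alone (4.64%). By this limit all the members above it on either array were 3p arms. The brightest miRNA spots read 1183.7 and 1877.1 units, so the family lay in the dim part of the brightness range of both arrays. Other limits changed these calls. At 5 SD over the blank mean 0 members were left in control (13.5% of all probes) and miR-125a-3p alone in BNCT (19.9%). Without trimming of the blanks, miR-125a-3p remained in control (23.9%) and miR-125a-3p and miR-125b-2-3p in BNCT (32.1%). With a limit from the 112 spots that carry no probe at all, which were brighter than the blanks, 0 members were left on either array (8.55% and 14.7%). In the authors' deposited table of processed values, miR-125a-3p is listed for both samples and miR-125b-1-3p and miR-125b-2-3p for BNCT, where 28.9% and 36.4% of all probes are listed. Their values there are 18.1 in control and 21.9 in BNCT for miR-125a-3p, and 9.16 and 12.1 in BNCT for the other two.

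**Figure D1:**
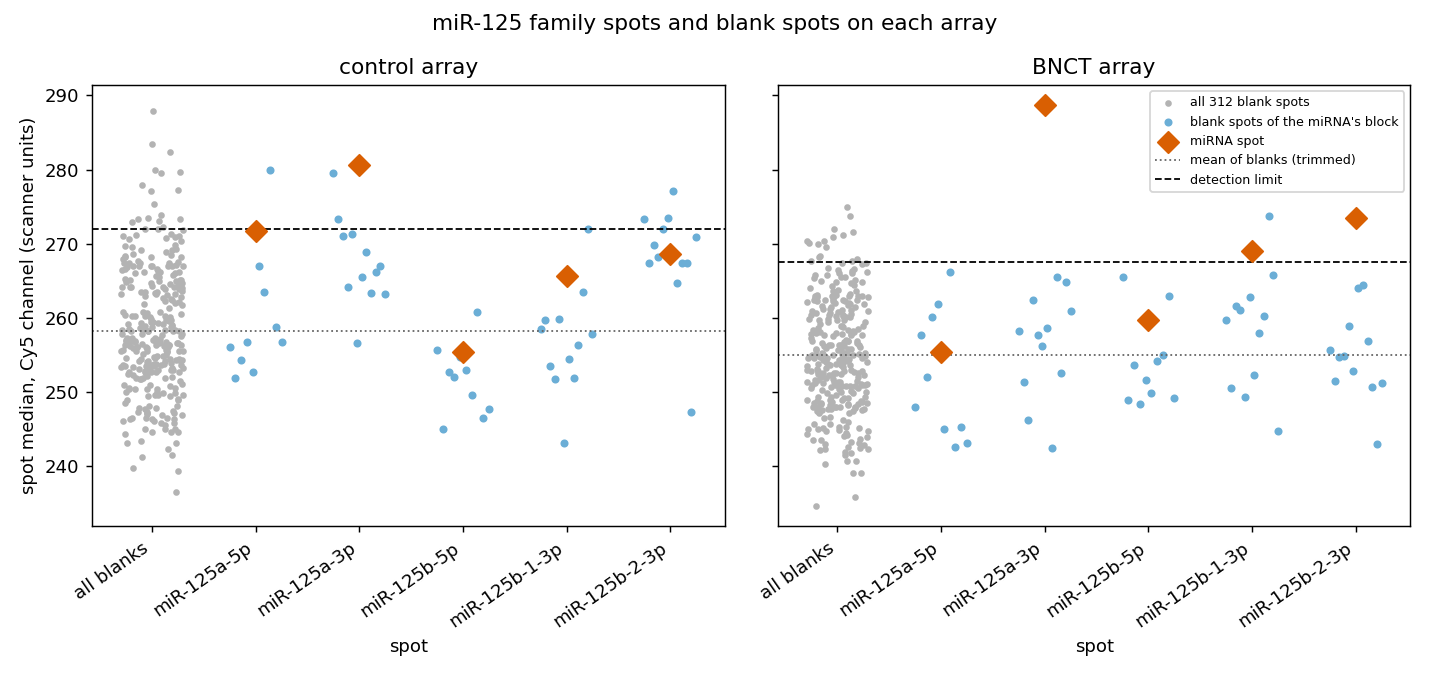
Spot medians in scanner units of the 5 miR-125 probes (diamonds), of all 312 blank spots (grey) and of the blank spots in each probe's own block (blue), 1 panel per array; the dotted line is the trimmed blank mean and the dashed line the detection limit. miR-125a-3p is above the limit on both arrays, at 280.6 and 288.7 units, and miR-125b-2-3p sits among its block's blank spots on the control array and above all of them on the BNCT array.

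hsa-miR-125a-5p, the arm usually loaded from MIR125A, read 271.7 units in control and 255.3 in BNCT. The control value was 0.31 units under the limit, well within the spot error of 6.96 units on that array, and the BNCT value was 0.39 units over the blank mean. In control it exceeded 292 of the 312 blank spots, and in BNCT 172. The spot fell by 16.4 units from control to BNCT, against a spot error of 9.37 units for that difference. Over the blank spots of its own block it stood 11.96 units in control and 3.16 in BNCT, a change of -8.80 units that is within that error. The spot error combines the spread of the blank spots with the variation of the spike control spots, and covers neither cultures nor slides. Since miR-125a-5p was under the limit on both arrays, no fold change is given for it.

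hsa-miR-125b-5p, the arm for which the family is best known in glia, read 255.4 units in control and 259.7 in BNCT. It exceeded 118 of 312 blank spots in control and 221 in BNCT, so on both arrays it lay inside the range of the blanks. Its spot was 4.31 units higher in BNCT, less than the spot error of 9.36 units. The other miRNA with the same seed, miR-4319, was also under the limit on both arrays, at 256.7 and 238.7 units. Among the 2337 probes matched to a RefSeq sequence, these are all that carry this seed, and none was above the limit. This says that they were not detectable by this limit on the raw spots, not that they were absent from the exosomes. With other ways of taking background, described further on, miR-125a-5p passed a limit in control and miR-125b-5p in BNCT.

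hsa-miR-125a-3p, the passenger arm of MIR125A, was the brightest member on both arrays, at 280.6 units in control and 288.7 in BNCT. It exceeded 309 of 312 blank spots in control and all 312 in BNCT, or 3.24 and 5.39 blank SDs over the blank mean. Its rank among all miRNA probes was 512 in control and 511 in BNCT. After background correction and quantile normalization its difference (BNCT minus control) was -0.0015 on the log2 scale, with a spot error of 0.22. The 630 probes above the limit on both arrays had differences from -0.82 to 0.75 with a median of -0.02, of which 339 were below and 290 above that of miR-125a-3p. Under this processing none of these 630 reached a 2-fold difference in either direction (0.0% higher and 0.0% lower). Its offset of 50 makes log2 differences of dim probes smaller, and quantile normalization gives both arrays the same distribution. The bright probe miR-24-3p, at 620.0 and 915.6 units, differed by 0.14 after both steps. That probe is not an example of the offset's effect on dim probes. The count therefore does not show that levels were stable. The sign of the miR-125a-3p difference depended on the scaling. That difference was -0.29 when arrays were scaled to the median of the shared probes, 0.26 with no normalization and 0.28 in the authors' processed values. Relative to the median of the shared probes its difference was 0.019 under the main processing and -0.23 without normalization, where that median was 0.49. Total RNA of vesicles was measured in bulk, so fewer vesicles and less of a miRNA per vesicle cannot be told apart.

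hsa-miR-125b-1-3p, the passenger arm of MIR125B1, read 265.6 units in control and 269.0 in BNCT. It was under the limit on the control array and 1.58 units over it on the BNCT array, where 11 of the 312 blank spots were as bright or brighter. The spots differed by 3.42 units, with a spot error of 9.42. Set against the lowest level detected on the control array, or its own control level where that was higher, the BNCT level gave no fold bound above 1 under the main processing. The bound was 1.02-fold without normalization and 1.24-fold with spike scaling. With the scanner's background column it was 1.16-fold, there a ratio to the member's own control level and carrying no error.

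hsa-miR-125b-2-3p, the passenger arm of MIR125B2, read 268.6 units in control and 273.5 in BNCT. In BNCT 310 of the 312 blank spots were dimmer, and in control 277. Its spot was 4.96 units higher in BNCT, against a spot error of 9.48. Its normalized BNCT level equalled the lowest level above the limit in control to within the level's error of 0.099 (log2), so the data set no lower bound on a difference.

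Raw spots were higher in BNCT for 4 of the 5 members. Over all miRNA probes 1526 of 2632 were higher and 1106 lower, while the blank spots went the other way, with 124 of 312 higher. The median change was 4.31 units for the members and 2.58 units for all miRNA probes. In these raw spots only the change of miR-125a-5p was larger than its spot error. Taken over the blank mean of each array, the change was -13.2 units for miR-125a-5p and 11.3 for miR-125a-3p. These exceeded their spot errors of 9.37 and 9.80, and the changes of the other members did not exceed theirs. Against the blank spots of each member's own block, described further on, the change was 19.2 units for miR-125a-3p and 18.4 for miR-125b-2-3p. Both were over their spot errors of 9.80 and 9.48, while miR-125a-5p, at -8.80 units, was within its spot error of 9.37.

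**Figure D2:**
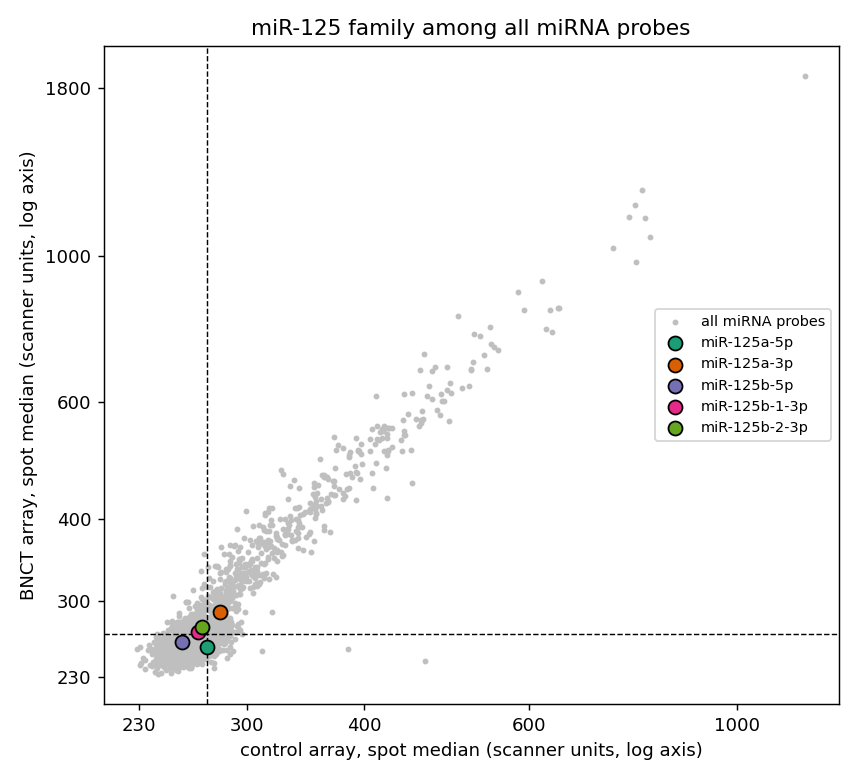
Spot median of every miRNA probe without a failure flag on the control array (x axis) and the BNCT array (y axis), in scanner units on log axes, with the 5 miR-125 probes in colour and the detection limits as dashed lines. The members lie in the dense cloud of dim probes, with miR-125a-3p alone in the upper right field at 280.6 and 288.7 units and miR-125a-5p on the control limit at 271.7 units.

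Most often on these arrays, both arms of a hairpin were under the limit or only the 5p arm was above it. Of 833 miRNA names with both a 5p and a 3p probe, neither arm was above the limit for 54.5% in control and 45.0% in BNCT. Of the same names, 96 (11.5%) had only the 3p arm above the limit on the BNCT array and 224 (26.9%) only the 5p arm. In control the shares of 3p alone and 5p alone were 10.2% and 24.2%. By single probes, 42.5% of the 887 probes named 5p and 28.2% of the 907 named 3p were above the limit on the BNCT array. By the main limit miR-125a, the family member whose name carries both arms in this form, belonged to the 3p-only class on both arrays. Its 5p arm lay just under the limit in control. With the block correction, described further on, both miR-125a arms passed in control. With the scanner's background subtracted, neither passed on either array. Since 5 probes are few and 3 of them lie near the limit, the arms of this family are not shown to differ from those of other hairpins.

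The arms also differ in base composition, which the choice of members did not use. G made up 16.7% of miR-125a-5p and 18.2% of miR-125b-5p, against 40.9% of miR-125a-3p, 40.9% of miR-125b-1-3p and 27.3% of miR-125b-2-3p. Across the 2337 probes with a RefSeq mature sequence, the G share went with brightness, with Spearman rho = 0.38 in control and 0.49 in BNCT. The GC share went with brightness more closely (rho = 0.55 and 0.63), and it differed less between the arms, at 50% for both 5p arms and 54.5 to 59.1% for the 3p arms. These probes share an array, a labelling reaction and a scan, so the correlation describes the arrays. Of probes with a G share of up to 18.2%, where both 5p arms fall, 15.7% passed the limit in control and 20.1% in BNCT. In the next range, up to 22.7%, which holds no member, these shares were 10.7% and 12.9%, the lowest of all ranges. In the range from 31.2 to 40.9%, which holds miR-125a-3p and miR-125b-1-3p, these shares were 26.9% and 40.2%, and above it 78.8% and 92.2%. The third 3p arm, miR-125b-2-3p, falls in the range from 23.5 to 30.4%, with 14.7% and 17.7% above the limit. The part of base composition in the brightness of the family was not tested.

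**Figure D3:**
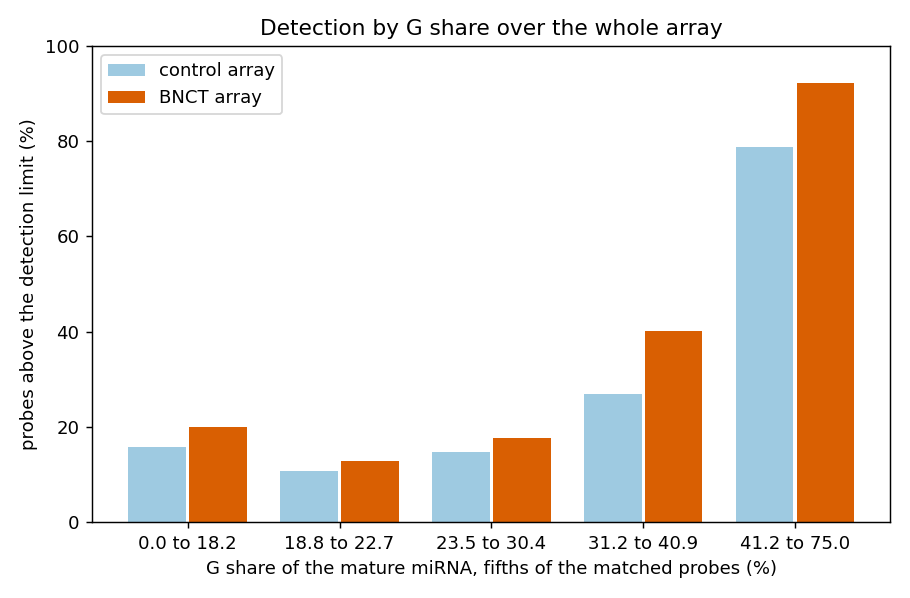
Share of miRNA probes above the detection limit (y axis, percent) by the G share of the mature miRNA (x axis, percent, split into 5 groups at quantiles of the 2337 matched probes with ties kept together), for the control and BNCT arrays. Both bars are highest in the most G-rich group, at 78.8% and 92.2%; the 5p arms of the family fall in the first group and 2 of the 3p arms in the fourth.

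The brightness of the blank spots varied over the surface, and this bears on 3 of the members. Each array has 32 blocks, and the mean of a block's blank spots ranged from 249.7 to 275.0 units in control and from 243.3 to 261.9 in BNCT. miR-125a-3p lies in block 1, where the 12 blank spots averaged 267.5 units in control (256.6 to 279.6) and 256.4 in BNCT (242.4 to 265.5). Its spot therefore stood 13.1 units over its block's blank spots in control and 32.3 units in BNCT. With each spot moved by the gap between its block's blanks and all blanks, its normalized difference was 0.20 on the log2 scale. The spot error of 0.22 belongs to the uncorrected spots, and none was computed for the corrected ones. miR-125b-2-3p, in block 17, stood 0.31 units over the 12 blank spots around it in control (mean 268.2) and 18.7 units over them in BNCT (mean 254.8). On the control array 6 of those 12 blanks were dimmer than the miR-125b-2-3p spot, and on the BNCT array all 12 were. With this correction, added after the files were seen, miR-125a-5p in block 14 passed a control limit of 268.7 units, so that 2 members passed in control (33.4% of all probes) and the same 3 in BNCT (40.2%). miR-125b-1-3p and miR-125b-5p stood 10.8 and 5.80 units over the blank spots of their blocks in BNCT, and 8.79 and 3.67 in control.

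**Figure D4:**
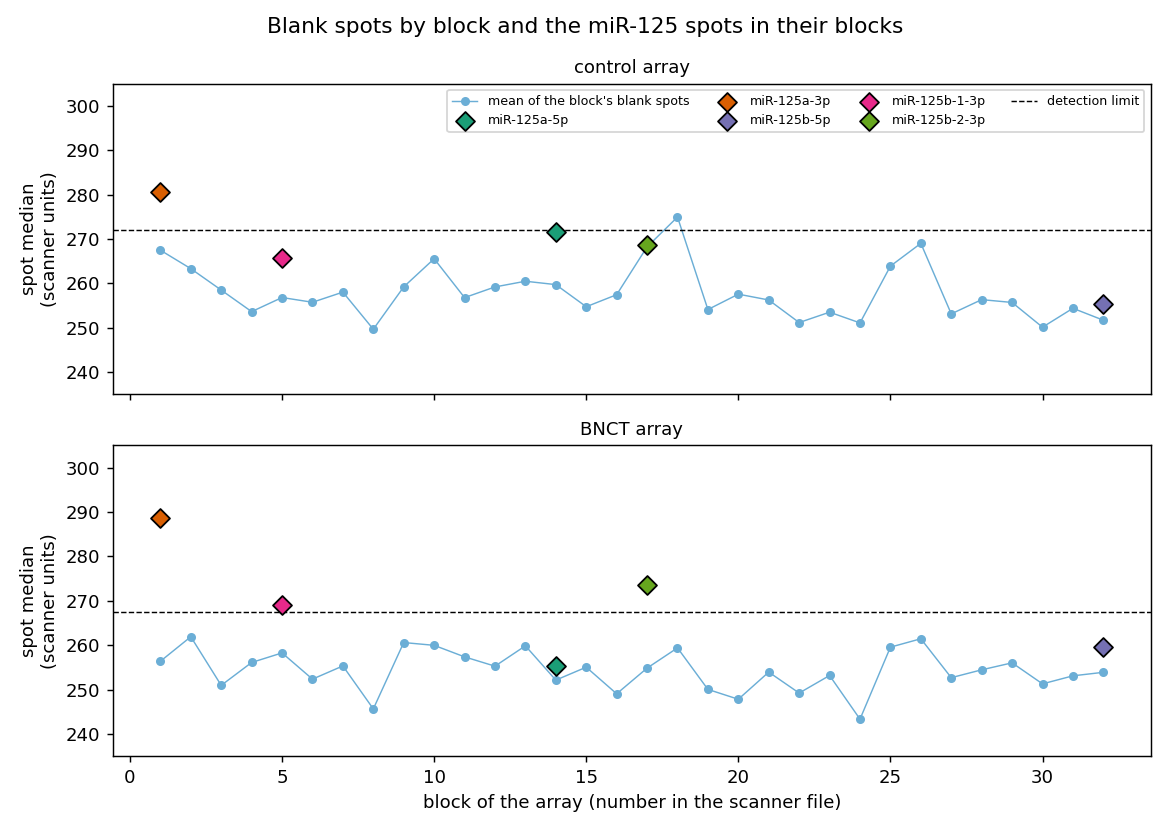
Mean of the blank spots in each of the 32 blocks (line, scanner units) with the 5 miR-125 spots (diamonds) at the block they were printed in and the detection limit (dashed), 1 panel per array. On the control array the blanks of blocks 1 and 17, which hold miR-125a-3p and miR-125b-2-3p, average 267.5 and 268.2 units, near the limit of 272.0; on the BNCT array they average 256.4 and 254.8.

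The scanner also recorded a background value beside each spot, and by that value the order of the members changed. The spot less its own background had a median of 46.8 units over the blanks in control and 39.7 in BNCT. miR-125a-3p was at 26.2 and 25.0 units, under most blank spots (38 and 63 of 312 were lower), with a background beside it of 254.5 and 263.7 units. miR-125b-2-3p was at 25.6 and 77.7 units, and in BNCT 306 of 312 blank spots were lower. miR-125b-5p was at 51.2 and 76.6 units, also with 306 of 312 blanks lower in BNCT. miR-125a-5p and miR-125b-1-3p were at 45.9 and 34.2 units in BNCT and at 51.2 and 19.0 in control. With a limit set in the same way on this quantity, none of the 5 members was above it in control, where 12.1% of all probes were. On the BNCT array miR-125b-5p and miR-125b-2-3p were above it, where 13.9% of all probes were. This is the only measure here by which a 5p arm of the family passed a limit on the BNCT array, so which arms were detected there turned on how background was taken.

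The genes that share clusters with the family were also dim. On the BNCT array their brightest arm read 265.5 units, less than the family's 3p arms (269.0 to 288.7) and more than its 5p arms. The cluster lists name the arms of the neighbouring hairpins of let-7, which represses growth genes, and of miR-99 and miR-100, which repress the kinase MTOR. Of 12 such arms, 2 passed the limit in control and 0 in BNCT, against 28.6% and 36.2% of all probes. Both were 3p arms printed in block 1 beside miR-125a-3p, miR-100-3p from the MIR125B1 cluster (279.5 units in control, 252.1 in BNCT) and miR-99a-3p from the MIR125B2 cluster (277.6 and 265.5). The blank spots of that block averaged 267.5 units in control. With the block correction miR-100-3p was still above the limit in control and miR-99a-3p was not, let-7c-5p (262.0 and 245.8 units) passed it in control, and miR-100-5p (256.8 and 255.7) in BNCT. Around MIR125A no partner was above the limit, the highest being let-7e-3p (262.9 and 252.0) and let-7e-5p (251.8 and 260.6). The miR-10 arms, relatives of miR-125 and miR-100 in the same larger family, were under the limit on both arrays (0 of 4), with miR-10a-5p at 265.4 and 259.0 units and miR-10b-3p at 259.9 and 265.3.

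Most markers of the labelled cells were also dim. Of 11 glial and mesenchymal markers, 3 passed the limit in control and 2 in BNCT, and miR-24-3p was the only such marker to pass it on both, far over it at 620.0 and 915.6 units. That list holds miR-100-5p and miR-10b-5p, which are also among the cluster partners and relatives above. The blood and serum markers had 0 of 6 above the limit in control and 3 in BNCT, with spots from 254.4 to 268.2 and from 248.9 to 273.8 units. Epithelial markers had 1 and 0 of 3, and muscle markers 1 and 1 of 3. All of these counts stand beside 28.6% and 36.2% of all probes. With the block correction the blood and serum list had miR-16-5p above the limit in control, and miR-144-3p was no longer above it in BNCT. In the glial and mesenchymal list miR-27a-3p then passed and miR-23a-3p no longer passed in control, and miR-100-5p passed in BNCT. The epithelial miR-205-5p no longer passed in control, and the muscle calls stayed the same. The part of RNA from other cells or serum in the family's values was not tested.

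The probes nearest to miR-125a-3p in the plane of the normalized log2 levels of the 2 arrays were miR-1226-5p (280.9 and 287.3 units), miR-4323 (280.5 and 287.0) and miR-3619-5p (280.9 and 286.7). Their distances were 0.016, 0.019 and 0.021 on the log2 scale, and 21 probes lay within 0.1. With 2 arrays such likeness means no more than equal brightness on both.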

How the data were processed

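The deposited scanner files hold, per the file headers, a median spot intensity in the Cy5 channel, with 3 scanner gains joined by fitted lines, and a background median per spot. The r2 of the line between gains 1 and 2 was 0.910 in control and 0.998 in BNCT. The table of values that the authors deposited holds linear intensities: each listed value equals the spot less a constant (258.1 and 254.9 units) divided by a factor (1.25 and 1.54), for 761 and 957 probes with a median of 25 on both arrays. The software for this was not given in the sources used here. Depth has no meaning for arrays, and 2 arrays limit the precision.

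Spots were background-corrected in R 4.3.3 with limma 3.58.1 (normexp fitted on the blank spots, offset 50), put on the log2 scale and quantile-normalized over the 2632 miRNA probes, with 2 flagged control spots left out. The spot error joins the trimmed blank SD (6.93 and 6.27 units) and the spike control CV (4.86% and 8.03%). For a member above the limit on 1 array, the bound uses the higher of the other array's lowest level above the limit and the member's own level there. The steps were tested on simulated arrays in which only probes brighter than any member were changed. That test required the right sign for most of the changed probes and does not cover spots as dim as the family.

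Groups came from the treatment labels. Members and lists were chosen with earlier results of these data known. The named miRNAs include the 5 members and the 3 probes nearest to the brightest member. From the cluster, family and seed lists they are those above the limit on an array, or the 2 highest of a list with none. The marker lists were not under this rule. miR-100-5p, let-7c-5p, miR-1182 and the markers were named after their values were seen. Other choices of background, scaling and limit were tried.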

Additional observations from a re-analysis of the deposited data

How the results depend on the processing

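The difference of miR-125a-3p between arrays (-0.0015, log2, BNCT minus control) was set against its spot error under the main processing (0.22), the only one computed. It stayed within that error under an offset of 16, cyclic loess, subtraction of the blanks, uncorrected background, the scanner's background column (0.058) and the block correction (0.20). It moved to -0.29 with scaling to the median and -0.33 to the 75th percentile of shared probes, 0.26 without normalization, 0.54 with spike scaling and 0.28 in the authors' values. The median of the shared probes moved with these scalings, to -0.06, -0.10, 0.49, 0.77 and 0.41. The bound of miR-125b-2-3p, 1.005-fold under the main processing, was 1.32-fold with spike scaling. With the scanner's background column it was 1.38-fold, there a ratio to the member's own control level and carrying no error. It was at most 1.09-fold under the other settings that gave a bound, and had no value above 1 with median or 75th percentile scaling. For the 5p arms, which have no fold, the alternatives of background and scaling were not used to give a difference. The alternatives of the limit were applied to them, with the block correction and the spot less the scanner's background among these.

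The count of members above the limit, 1 in control and 3 in BNCT, was 0 and 1 with a limit at 5 SD (miR-125a-3p in BNCT; 13.5% and 19.9% of all probes), 0 and 0 with a limit from the 112 spots that carry no probe (8.55% and 14.7%), and 5 and 5 with no limit. It was 2 and 3 with the block correction and 0 and 2 with the spot less the scanner's background. It was 1 and 2 over untrimmed blanks (miR-125b-1-3p lost), and 1 and 3 in the authors' table. The spots that carry no probe had a median of 302.1 units in control and 286.0 in BNCT, so miR-125a-3p in BNCT exceeded 67 of 112 of them and 2 in control. No paired analysis was possible because each group has 1 array. For the same reason no replicate was left out.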
